A study of Homo sapiens with 4 samples.

Results

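The genes described here encode the proteins of the mitochondrial ribosome. They are the protein-coding genes whose symbols begin with MRPL or MRPS followed by a number and at most one letter, and there were 78 of them among the 58243 genes in the tables. All 78 had enough counts to be tested, and by the known structure of the human mitoribosome 26 encode small subunit proteins, 51 encode large subunit proteins, and MRPS36 encodes a protein now placed in the 2-oxoglutarate dehydrogenase complex and not in the ribosome. MRPS18A and MRPS30 are counted with the large subunit, where their proteins sit despite their names.

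The mitochondrial ribosome translates the few messages encoded by mitochondrial DNA, which specify core subunits of the respiratory chain and the ATP synthase. Its ribosomal RNAs come from mitochondrial DNA, but all of its proteins are encoded in the nucleus, made in the cytosol and imported, so that its supply depends on transcripts made from many scattered genes. Some of these proteins descend from bacterial ribosomal proteins, and others are found only in mitochondria.

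RNA was sequenced from SH-SY5Y, a human neuroblastoma cell line, in 2 libraries from untreated cells (control a and b) and 2 libraries from cells given sodium nitroprusside (SNP a and b), a compound that releases nitric oxide. No gene was altered in either group. The protocol speaks of cells differentiated with retinoic acid and of a range of SNP doses applied for 8 h. It does not say which dose was sequenced, and it calls the RNA of treated cells oxidized without describing a step that selected oxidized RNA. Nothing in the labels says that libraries a and b came from separate cultures, so p-values measure the spread between these libraries, which may be technical.

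The gene counts summed to between 5613144 and 8056550 per library, between 11.5% and 13.3% of the read totals that the RPKM column implies. Of 12 sympathoadrenal neuroblastoma markers 11 were counted in each library, and tyrosine hydroxylase (TH) was at 0 in all 4. These markers summed to 4074 and 4107 CPM in control and 3262 and 3347 in SNP (CPM is a library's counts scaled to the same total). DBH (-1.38) and PHOX2A (-0.94) fell and CHGA (0.91) and CHGB (0.97) rose on the log2 scale. The 5 fibroblast markers summed to between 86.6 and 99.0 CPM in each library. Among these, COL3A1 rose from 260 and 194 counts to 477 and 458, and PDGFRB fell from 358 and 279 to 234 and 204. PTPRC, CD3E and HBB, which mark blood cells, were at 0 throughout. What part other cell states have in the results was not tested, and in bulk RNA fewer cells of a type cannot be told apart from less RNA per cell.

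Single mitoribosomal genes moved both ways with SNP, and the median gene of the group stood close to the median of all genes. The quasi-likelihood test of edgeR, with p-values adjusted by Benjamini-Hochberg over the 14759 genes that entered it, passed 16 of 78 members at 0.05, which is 20.5% of them against 26.2% of all genes tested. Of the 16, 8 rose, with 13.6% of all genes rising, and 8 fell, with 12.6% of all genes falling. The median log2 fold change was -0.0056 over the members and -0.0042 over all genes tested, and 39 members lay above 0 and 39 below. The members ran from -0.81 to 0.83, so no member changed 2-fold. In 52 of 78 members (66.7%) the control and SNP values did not overlap, 25 of them higher and 27 lower in SNP, and the share over all genes tested was 64.0%. The count of members that passed depended on the libraries: it was 10 (12.8%) without control a and 7 (8.97%) without control b, where 15.99% and 15.77% of all genes tested passed. DESeq2's Wald test passed 8 members, all among the 16, beside 16.4% of all genes. Those it did not pass were MRPS24 (DESeq2 adjusted p = 0.130), MRPS2 (0.054), MRPL48 (0.127), MRPL53 (0.139), MRPL19 (0.112), MRPS5 (0.141), MRPS11 (0.121) and MRPS26 (0.134).

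The members together took 0.198% of all counts in control a and 0.206% in control b, and 0.208% in SNP a and 0.201% in SNP b. The Wilson 95% intervals, which cover counting error only, were 0.194% to 0.201%, 0.203% to 0.210%, 0.205% to 0.211% and 0.198% to 0.204% in the same order. The groups overlapped, with control a lowest and SNP a highest. The median member stood at 35.95 and 36.85 TPM (transcript level scaled by gene length and library) in control and at 39.89 and 39.82 in SNP. These medians did not overlap, whereas the members' median log2 fold change was -0.0056. TPM sum to the same total in each library, so they shift with the levels of other genes. The difference in median TPM was not tested.

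**Figure D1:**
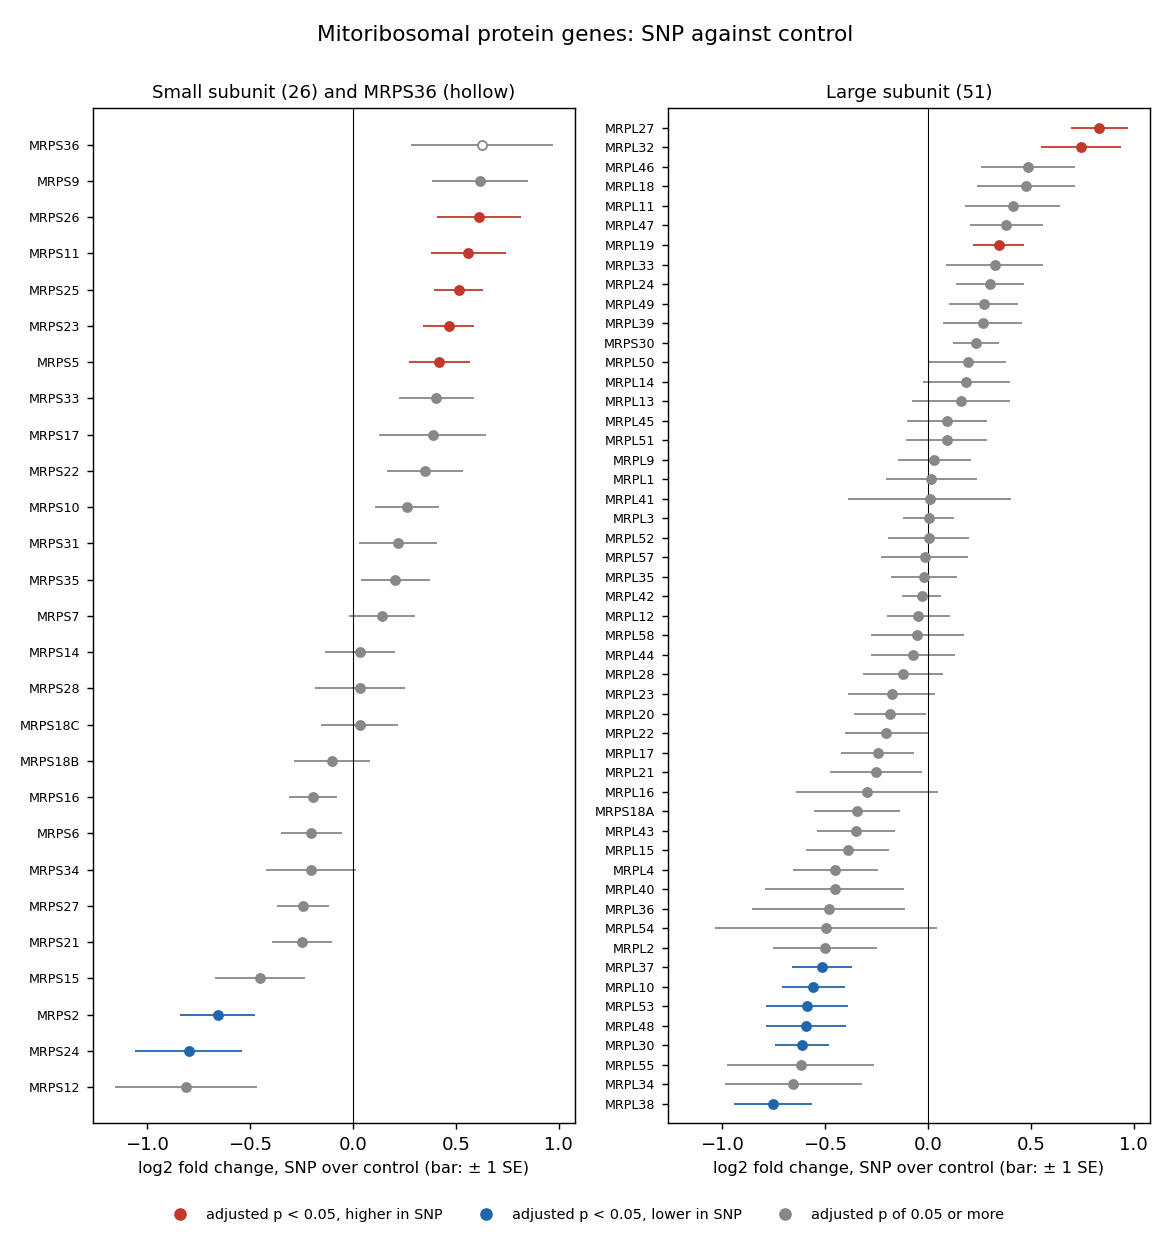
Log2 fold change of SNP over control for each of the 78 members, with small subunit genes on the left and large subunit genes on the right. Bars are 1 SE from edgeR, coloured points passed the adjusted p of 0.05. The members spread on both sides of 0, from MRPS12 at -0.81, which did not pass, to MRPL27 at 0.83.

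The promoters of these genes are shown because some of them carry the same short motifs, both in members that rose and in members that fell. RefSeq promoters (GRCh38.p14, 250 bases before to 50 after the start) were found for 69 of 78 members. An ETS core, CCGGAAG on either strand, the kind of site bound by the GABP (NRF-2) factor that acts on many nuclear genes for mitochondria, was present in 30 of them (43.5%). The share was 22.4% in 9948 other protein-coding genes that were tested and 10.3% in all 35116 promoters of the table. Members and other tested genes were scored by a match in any of their promoters. The 35116 promoters were scored singly, so for each motif their share is in an unlike unit. A YY1-type sequence, AANATGGCG on either strand, was present in 18 (26.1%), with 8.14% of the other tested genes and 3.19% of all promoters. The NRF-1 sequence GCGCANGCG was in 14 (20.3%, against 17.4% and 7.52%), the SP1-type GGGCGG in 42 (60.9%, against 77.8% and 45.0%), and TATAAA in 3 (4.35%, against 8.23% and 11.5%). A match here is a run of letters and not a shown binding site.

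The ETS core stood in the promoters of 3 of the 8 members that rose and of 4 of the 7 that fell and had a promoter in the table, which MRPL10 did not. The stretches of 60 bases around it are printed 5′ to 3′ on the strand of each gene, with the core or its reverse complement in capitals. All lie upstream of the RefSeq start.
MRPL27, rose, chr17:50373185-50373244, minus strand: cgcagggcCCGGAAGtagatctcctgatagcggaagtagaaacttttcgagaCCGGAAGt
MRPS26, rose, chr20:3045989-3046048, plus strand: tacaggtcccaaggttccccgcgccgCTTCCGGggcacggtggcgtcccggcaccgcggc
MRPS23, rose, chr17:57850045-57850104, minus strand: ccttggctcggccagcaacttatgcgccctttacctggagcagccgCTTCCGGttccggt
MRPL53, fell, chr2:74472719-74472778, minus strand: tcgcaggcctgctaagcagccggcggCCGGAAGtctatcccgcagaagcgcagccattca
MRPL48, fell, chr11:73787785-73787844, plus strand: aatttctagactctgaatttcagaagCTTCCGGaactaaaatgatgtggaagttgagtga
MRPL30, fell, chr2:99181013-99181072, plus strand: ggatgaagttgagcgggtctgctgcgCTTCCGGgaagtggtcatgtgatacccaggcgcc
MRPL38, fell, chr17:75905059-75905118, minus strand: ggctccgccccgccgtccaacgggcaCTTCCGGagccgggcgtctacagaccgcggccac

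The YY1-type sequence stood at the start of 1 of those 8 and of 3 of those 7. The 29 bases around it, with the match in capitals, are given in the same way. All these matches lie after the RefSeq start and hold the letters ATG. Whether these letters are start codons was not tested.
MRPL32, rose, chr7:42932374-42932402, plus strand: tccagcagggAAAATGGCGctggccatgc
MRPS24, fell, chr7:43869480-43869508, minus strand: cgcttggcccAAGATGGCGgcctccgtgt
MRPL38, fell, chr17:75904860-75904888, minus strand: ggccggagggAAGATGGCGgcgccctggt
MRPL37, fell, chr1:54200188-54200216, plus strand: ctgcgcgcggcAACATGGCGgggtccagg
Over all matched members, the median log2 fold change was -0.09 with the ETS core and 0.03 without it, and 0.01 with the YY1-type sequence and 0.00 without it. MRPL27 and MRPL30, the members that passed the test under each of the 16 other fits that gave them a value, both carry the ETS core and moved in opposite directions.

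The largest rise was in MRPL27 (ENSG00000108826, chr17:50367857-50373214, minus strand, GRCh38), which encodes the relative of bacterial L27, a protein near the peptidyl transferase centre where peptide bonds form. It was counted 201 and 158 times in the controls and 416 and 409 times with SNP. Scaled to TMM-adjusted CPM these are 31.0 and 28.0 against 52.4 and 53.0, a mean of 29.5 ± 2.08 (SD, n = 2) against 52.7 ± 0.469 (SD, n = 2). The libraries of a group lay close together and far from those of the other group. On the log2 scale this is 0.83 ± 0.14 (SE), and edgeR gave an adjusted p of 1.558e-04. It passed in all 16 other fits, with log2 fold changes from 0.52 to 0.90.

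MRPL32 (ENSG00000106591, chr7:42932200-42948958, plus strand) encodes the relative of bacterial L32, whose maturation by the m-AAA protease is a step of mitoribosome assembly. Its CPM were 12.7 and 13.1 in control and 23.4 and 19.7 in SNP, from 82 and 74 counts against 186 and 152. The SNP values lay above both control values. The log2 fold change was 0.74 ± 0.19 (SE), with an edgeR adjusted p of 0.0070, and it was 0.0515 without control a.

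In the small subunit 5 genes rose. MRPS26, MRPS25 and MRPS23 encode proteins with no bacterial relative, while MRPS11 and MRPS5 encode relatives of bacterial S11 and S5, on the platform and near the entry of the mRNA. MRPS25 had 64.2 and 66.9 CPM in control and 100.3 and 86.9 in SNP, and MRPS23 had 55.4 and 49.4 against 69.4 and 75.5. Variants of either gene have been linked to inherited mitochondrial disease. MRPS26 had 10.6 and 13.3 CPM against 17.8 and 18.8, and MRPS11 had 14.8 and 15.6 against 22.03 and 22.8. MRPS5 had 28.1 and 28.8 CPM against 35.9 and 40.2. In each of the 5 both SNP values exceeded both control values, which choosing genes by the test favours. The log2 fold changes were smaller than in MRPL27.

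The log2 fold changes of these 5 were 0.61 ± 0.20 (SE) for MRPS26, 0.56 ± 0.18 for MRPS11, 0.51 ± 0.12 for MRPS25, 0.47 ± 0.12 for MRPS23 and 0.42 ± 0.15 for MRPS5. Their edgeR adjusted p-values were 0.030, 0.027, 0.0027, 0.0079 and 0.042. Leaving out control a raised the adjusted p to 0.282 for MRPS26, 0.172 for MRPS11 and 0.224 for MRPS5. Leaving out control b raised it to 0.1002 for MRPS11, 0.142 for MRPS23 and 0.162 for MRPS5, and leaving out SNP b to 0.063 for MRPS26 and 0.127 for MRPS5. MRPS25 passed without any one library. The eighth gene that rose, MRPL19, a relative of bacterial L19, had 76.6 and 61.2 CPM in control and 89.9 and 85.5 in SNP. Its log2 fold change was 0.34 ± 0.12, with an edgeR adjusted p of 0.044, and 0.508 without control b and 0.1002 without SNP a.

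Among the genes that fell, MRPL30 (ENSG00000185414, chr2:99181079-99197626, plus strand) had the smallest p. It encodes the relative of bacterial L30 of the large subunit. Its counts were 362 and 314 in control and 293 and 279 in SNP, or 55.8 and 55.7 CPM against 36.9 and 36.2. The 2 controls were within 0.1 CPM of each other, and the SNP libraries stood well below them. The log2 fold change was -0.61 ± 0.13 (SE), with an edgeR adjusted p of 0.0016, and it passed in all 16 other fits, from -0.63 to -0.54.

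MRPL38 (ENSG00000204316, chr17:75898643-75905413, minus strand) encodes a mitochondrion-specific protein of the central protuberance, the knob of the large subunit that faces the small one. Its CPM were 26.2 and 36.2 in control and 15.99 and 21 in SNP. The controls differed more from each other than in MRPL30, but both exceeded the SNP values. The log2 fold change was -0.75 ± 0.19 (SE), with an edgeR adjusted p of 0.0056, and of 0.144 without control b.

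The other 4 large subunit genes that fell were MRPL48, also of the central protuberance, MRPL53 and MRPL37, which have no bacterial relative, and MRPL10, which anchors the stalk that recruits translation factors. MRPL48 had 18.4 and 21.8 CPM in control and 13.5 and 13.1 in SNP. MRPL53 had 17.7 and 22.4 against 12.6 and 14. In both genes control b was the highest library and no SNP value reached a control value. MRPL10 had 39.0 and 48.1 CPM against 27.4 and 31.6, and MRPL37 had 42.6 and 46.5 against 29.1 and 33.2, again with no overlap. Log2 fold changes were -0.59 ± 0.19 (SE) for MRPL48, -0.59 ± 0.20 for MRPL53, -0.56 ± 0.15 for MRPL10 and -0.52 ± 0.14 for MRPL37. Their edgeR adjusted p-values were 0.028, 0.033, 0.0099 and 0.011. Without control b all 4 missed the threshold, at adjusted p of 0.245, 0.320, 0.195 and 0.122. Without SNP a, MRPL53 had an adjusted p of 0.101 and MRPL37 one of 0.0513, and without SNP b MRPL48 had one of 0.0507.

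In the small subunit 2 genes fell. MRPS24 encodes the relative of bacterial S3, at the mRNA entry, and MRPS2 that of bacterial S2, a gene linked to inherited mitochondrial disease. MRPS24 was counted 88 and 58 times in the controls and 63 and 45 times with SNP, or 13.6 and 10.3 CPM against 7.93 and 5.83. MRPS2 had 28.4 and 25.4 CPM against 14.8 and 19.3. The SNP values were below the control values in both genes, although the 2 libraries of a group differed visibly. Log2 fold changes were -0.80 ± 0.26 (SE) and -0.66 ± 0.18, with edgeR adjusted p-values of 0.028 and 0.011. Without control a these became 0.253 for MRPS24 and 0.093 for MRPS2, without SNP b 0.130 for MRPS24, and without SNP a 0.074 for MRPS2.

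**Figure D2:**
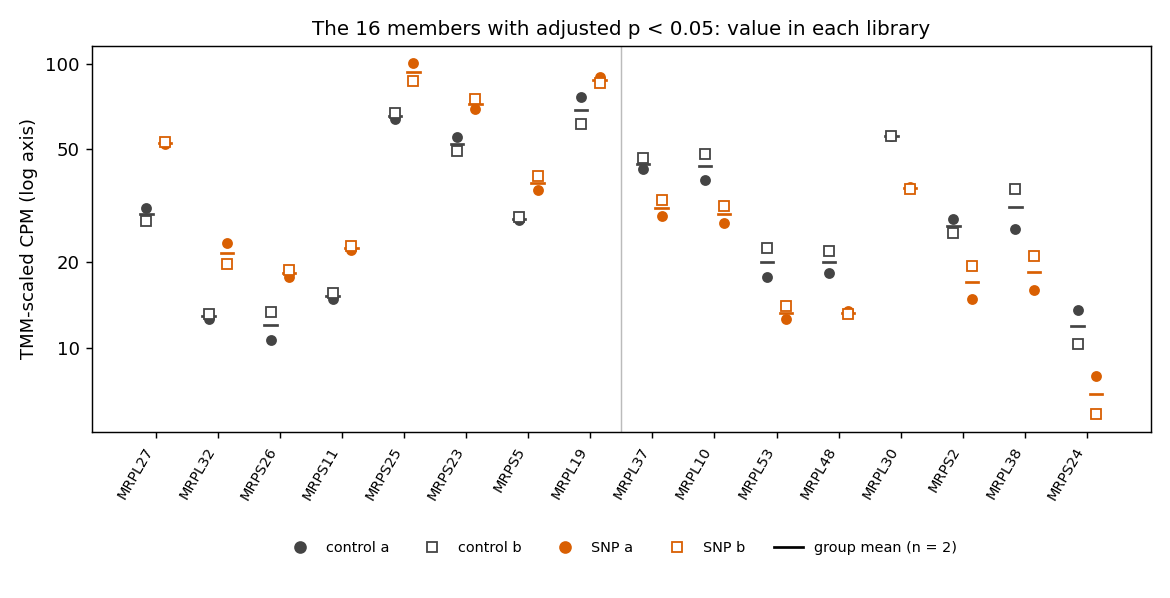
TMM-scaled CPM on a log axis in each of the 4 libraries for the 16 members that passed the test, ordered by log2 fold change, with control in grey and SNP in orange, replicate a filled and replicate b hollow. Lines are means of 2 libraries. In all 16 both SNP points lie on one side of both control points, as for MRPL27 with 31.0 and 28.0 CPM in control and 52.4 and 53.0 in SNP. Choosing genes by the test favours such separation, so it is no further support. Over all genes tested 64.0% had no overlap.

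Several members with large differences did not pass. MRPS12, the relative of bacterial S12 at the decoding site, had the lowest log2 fold change of all members, -0.81 ± 0.35 (SE), but rested on 51, 30, 25 and 34 counts and had an edgeR adjusted p of 0.088. MRPS9 had 0.62 ± 0.23 and an adjusted p of 0.054, the nearest to the threshold from outside. These 2 were singled out after their values were seen. MRPS36, the member outside the ribosome, had 25 and 33 control counts, and SNP a and b had 77 and 40. The SNP libraries disagreed, and the log2 fold change of 0.63 ± 0.34 had an adjusted p of 0.19. The log2 fold change was 1.01 without SNP b and 0.10 without SNP a, and 0.34 without control a and 0.95 without control b.

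The 2 subunits were set side by side. In the small subunit 5 of 26 genes rose and 2 fell, with a median log2 fold change of 0.09. In the large subunit 3 of 51 rose and 6 fell, with a median of -0.05. The shares that passed were 26.9% and 17.6%, against 26.2% of all genes tested. The subunits also differed in base composition, with a median excess of guanine over cytosine of 2.41 percentage points in the small and 1.42 in the large subunit genes. With offsets for composition 1 rose and 2 fell in the small subunit, and 2 rose and 3 fell in the large. The median log2 fold changes with these offsets were 0.05 in the small and -0.11 in the large subunit. Summed over genes, small subunit counts were 0.566 and 0.564 of large subunit counts in control a and b and 0.615 and 0.598 in SNP a and b. Both SNP ratios lay above both control ratios. With 2 libraries against 2 the smallest two-sided exact p is above 0.05, so no test is given for this ratio, and counts summed over genes follow the longer and more abundant ones.

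Among genes with no bacterial relative, the small subunit had 9. Of these 3 rose (MRPS23, MRPS25 and MRPS26) and 0 fell, with a median of 0.35, while MRPS27 (-0.24) and MRPS34 (-0.20) lay below 0 and did not pass. The large subunit had 21 such genes, of which 0 rose and 4 fell (MRPL37, MRPL38, MRPL48 and MRPL53), with a median of -0.03. Of genes with a bacterial relative, 2 rose and 2 fell among 17 of the small subunit, and 3 rose and 2 fell among 30 of the large. The shares that passed were 33.3% and 19.05% in the small and large subunit without a bacterial relative, and 23.5% and 16.7% with one. Over all genes tested 26.2% passed, 13.6% higher and 12.6% lower. The base composition of the 9 small subunit genes without a bacterial relative also stood apart. Their median excess of guanine over cytosine in the transcripts was 3.10 percentage points. It was 1.06 in the 21 such genes of the large subunit and 1.04 over all genes tested. With offsets for length, GC and guanine over cytosine, described further on, 0 of the 9 rose and 0 fell (median 0.17), and 0 of the 21 rose and 2 fell (MRPL38 and MRPL48, median -0.11).

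Parts of the large subunit with a known role did not move as units. In the stalk MRPL10 fell, while MRPL11, which binds at its base, had a log2 fold change of 0.41 ± 0.23 (SE, edgeR adjusted p = 0.20) and MRPL12, the factor-binding protein itself, -0.05 ± 0.15 (0.86). In the central protuberance MRPL38 and MRPL48 fell, MRPL40 had -0.45 ± 0.34 (0.35) and MRPL46 had 0.49 ± 0.23 (0.12). MRPL46 had 12.5 and 8.52 CPM in control and 13.8 and 15.8 in SNP, without overlap. On the side of the exit tunnel that meets the inner membrane, MRPL44 (-0.07 ± 0.20) and MRPL45 (0.09 ± 0.19) were close to 0.

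The MRPS18 genes are 3 related copies whose proteins occupy different places, MRPS18A in the large subunit and MRPS18B and MRPS18C in the small one. MRPS18A had 14.2 and 17.2 CPM in control and 12.6 and 12.1 in SNP, without overlap, and a log2 fold change of -0.35 ± 0.21 (SE). MRPS18B had 17.4 and 19.4 against 17.4 and 16.9, and -0.10 ± 0.19. MRPS18C had 21.6 and 17.0 against 20.9 and 18.8, and 0.03 ± 0.19. None of the 3 passed edgeR's test, with adjusted p-values of 0.24, 0.73 and 0.92. MRPS30, a large subunit protein and one of the most counted members, had 0.23 ± 0.11 and 0.13.

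Of the 15 members on a list of genes linked to inherited defects of mitochondrial translation, MRPS23 and MRPS25 rose and MRPS2 fell, which is 20% of the list against 26.2% of all genes tested, and the median log2 fold change was 0.04. None of these 3 passed edgeR's test when base composition was modelled, with adjusted p-values of 0.31, 0.077 and 0.48. The others did not pass the test, among them MRPS22 (0.35 ± 0.18), MRPL24 (0.30 ± 0.17), MRPL39 (0.27 ± 0.19), MRPS7 (0.14 ± 0.16), MRPS34 (-0.20 ± 0.22) and MRPS16 (-0.19 ± 0.12). MRPL50 (0.19), MRPS14 (0.04), MRPS28 (0.04) and MRPL3 (0.00) changed sign when base composition was modelled, as did MRPS18B and MRPS18C.

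Levels of the members differed widely. Per length, the highest level was in MRPS21, with 140.1 and 168 TPM in control and 157 and 123 in SNP, followed by MRPL3, MRPL12 and MRPS16. Their ranges over the 4 libraries overlapped, so these 4 cannot be ordered. MRPL12 shares 68.2% of its exonic bases with another gene, so its level is uncertain. The lowest was in MRPL54, with 7.88, 10.9, 5.64 and 8.79 TPM, which overlapped MRPL46 (9.05, 6.29, 10.8 and 12.9) and MRPL16 (11.7, 9.28, 9.96 and 8.66). In counts, which also depend on length, the most covered members were MRPL42 (mean 1598), MRPS30 (601) and MRPS25 (565), and the least were MRPL54 (11.5), MRPL41 (23.0) and MRPL36 (27.0). The standard error of the log2 fold change was 0.10 in MRPL42 and 0.54 in MRPL54, so a change of the size seen in MRPL27 was not detectable in MRPL54 at this depth. Across members, the rank correlation of the log2 fold change with mean count was 0.19 (Spearman, 78 genes of the same libraries).

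The direction in which members differed went with the base composition of their transcripts. Across the 78 members the log2 fold change rose with the excess of guanine over cytosine in the transcripts, in percentage points, with a Spearman correlation of 0.61, and over 14724 genes tested it was 0.48. The genes share libraries, so this is a description without a p. The ratio of control b over control a gave -0.09 across the members and that of SNP b over SNP a gave -0.21. Over all genes tested these were -0.03 and -0.31, so composition also went with the difference between the SNP libraries. With total GC content the correlation was -0.45, with the guanine excess of the coding sequence alone 0.40, and of the 3′ untranslated region 0.17. For GC content, control b over a gave 0.12 and SNP b over a gave 0.30 across the members. Over all genes tested GC content gave -0.20 for SNP over control, 0.17 for control b over a and 0.41 for SNP b over a. There it went more with the difference between the SNP libraries than with that between the groups.

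Divided by rank into 3 sets of 26, the members with the lowest guanine excess had a median of -0.30 on the log2 scale, and 1 rose and 5 fell. The middle set had -0.03, with 2 rising and 3 falling, and the set with the highest excess had 0.29, with 5 rising and 0 falling. At the low end, MRPS2 had a value of -5.53 points, lower than all but 2.51% of genes tested, and MRPL10 one of -4.33 points. At the high end MRPS26 had an excess of 5.23, MRPL27 of 4.78 and MRPS5 of 4.68 points. MRPL30 (1.42) and MRPL48 (1.20) were near the middle of all genes and fell, and MRPS11 (0.94) was near the middle and rose.

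**Figure D3:**
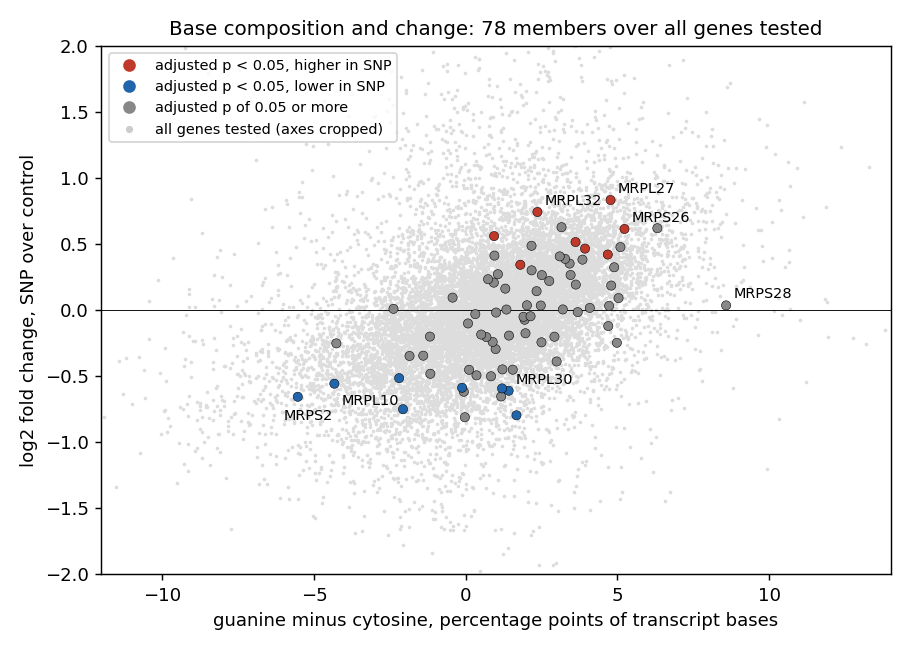
Log2 fold change of SNP over control against the excess of guanine over cytosine in the transcripts, in percentage points, for the 78 members over all genes tested in pale grey. Members that rose are red and members that fell are blue, and the members follow an upward course with a Spearman correlation of 0.61, with MRPS2 and MRPL10 at the left and MRPL27 and MRPS26 at the right.

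The test was therefore also run with offsets. These took out each library's smooth trend of counts on transcript length, on GC content and on the excess of guanine over cytosine. With them 8 members passed edgeR's test, 10.3% of the members against 18.7% of all genes tested, and 7 of these were among the 16. MRPL27 (0.52, adjusted p = 0.0094), MRPL32 (0.58, 0.027) and MRPS11 (0.55, 0.028) remained higher. MRPL30 (-0.61, 0.0019), MRPL48 (-0.60, 0.030), MRPL38 (-0.52, 0.046) and MRPS24 (-0.79, 0.048) remained lower, and MRPS21, which did not pass without offsets (-0.25, 0.23), was at -0.49 with an adjusted p of 0.015.

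Of the 16, 9 no longer passed, among them MRPS2, MRPL10, MRPS26 and MRPS5 from the ends of the composition range. With the offsets MRPS2 was at -0.17, MRPL10 at -0.11, MRPL37 at -0.18 and MRPL53 at -0.34 on the log2 scale. MRPS5 was at 0.05, MRPS23 at 0.17, MRPS25 at 0.25, MRPS26 at 0.33 and MRPL19 at 0.25. MRPS28, the member with the largest guanine excess, went from 0.04 to -0.56 with an adjusted p of 0.061. In all, 12 of 78 members changed sign and the SD of the members' log2 fold changes went from 0.40 to 0.32. What gives rise to the trend on composition was not tested.

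**Figure D4:**
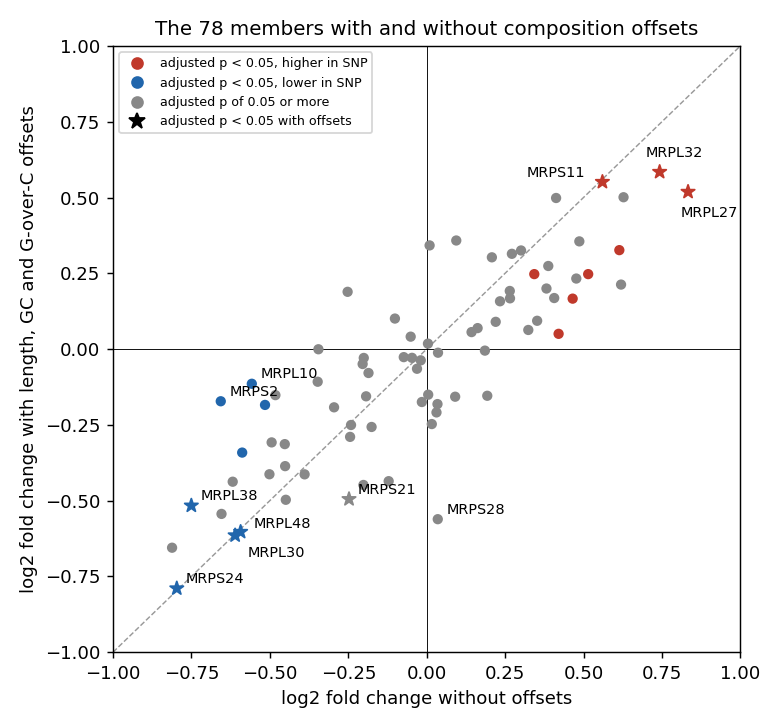
Log2 fold change of the 78 members with offsets for length, GC and guanine over cytosine (vertical) against that without them (horizontal), with the diagonal dashed. Colours give the call without offsets and stars the 8 members that passed with them, and MRPS2 and MRPL10 moved from -0.66 and -0.56 to -0.17 and -0.11 while MRPL30 stayed at -0.61.

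Many of these genes lie close to others, and the counts cannot separate shared bases. Exons of 41 members (52.6%) overlap an exon of another gene, against 50.6% of protein-coding genes tested, and whether counting used the strand is not given in the sources used here. Of these 41, 11 passed the test (26.8%, near the 26.2% of all genes tested), and of the 37 without overlap 5 passed (13.5%; MRPL27, MRPS23, MRPS26, MRPL48 and MRPL10). MRPL38 shares 1373 of its 3663 exonic bases with AC087289.3, which had 41, 20, 68 and 71 counts and rose by 0.83 while MRPL38 fell. MRPL30 shares 564 of 2898 bases with AC079447.1 on the same strand (13, 20, 26 and 36 counts, log2 fold change 0.53, not passed). MRPL53 shares 608 of 1344 bases with CCDC142 (246, 222, 228 and 284 counts, log2 fold change -0.24). MRPS5 shares 550 of 6719 with ZNF514, which rose by 0.59, and MRPS25 shares 1197 of 5383 with NR2C2 on the opposite strand (-0.14). The readthrough gene URGCP-MRPS24 had 12 counts in SNP b and 0 in the other 3 libraries, which allows up to 3 counts each. MRPL12, which did not pass, shares 701 of 1028 bases with the protein-coding gene AC139530.2 on the same strand. The values of these members are uncertain to that extent.

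Pseudogenes named after members took few counts. There are 75 such genes in the tables, summing to 299 and 301 for the controls and to 393 and 443 with SNP, against 12919, 11590, 16769 and 15365 for the members in the same order.

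Some members share a start region with a neighbour. A protein-coding gene starting within 1000 bases on the opposite strand, pointing away, was found for 17 of 78 members (21.8%), against 9.72% of protein-coding genes tested. MRPL46 and MRPS11 form such a pair, with starts 34 bases apart, and had log2 fold changes of 0.49 and 0.56, of which MRPS11 passed. MRPL27 starts 6 bases from EME1, a subunit of a DNA endonuclease, which had 193 and 195 counts against 289 and 208 and a log2 fold change of -0.02. MRPL30 starts 21 bases from MITD1 (0.00, 96 and 93 against 141 and 104 counts). Beside MRPL50 (0.19) and MRPL21 (-0.25), which did not pass, ZNF189 rose by 0.77 and IGHMBP2 by 0.59.

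Genes that work with the mitoribosome were examined for comparison. Of 5 other mitoribosomal proteins outside the naming pattern, 0 passed edgeR's test, 1 had an unadjusted p under 0.05, and DESeq2 and limma-voom passed 0. The lowest p was that of PTCD3, a small subunit protein, at 0.22 ± 0.10 (SE), and GADD45GIP1 was at -0.49 ± 0.27 and DAP3 at -0.12 ± 0.11. Of 16 factors of mitochondrial translation 2 passed (12.5%, against 26.2% of all genes tested). The release factor gene MTRF1L rose from 27.0 and 34.3 CPM to 49.2 and 37.7, by 0.51 ± 0.16, and OXA1L, the insertase for newly made proteins, fell from 53.7 and 55.8 to 41.4 and 41.8 CPM, at -0.40 ± 0.13. Their edgeR adjusted p-values were 0.024 and 0.027, and DESeq2 passed 0 of the 16. The initiation factor MTIF2 had 0.38 ± 0.15 and did not pass. The excess of guanine over cytosine was 0.36 points in MTRF1L and -3.31 in OXA1L. Calls with composition offsets are not given for these lists.

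Of 30 genes for mitoribosome assembly 7 passed edgeR's test (23.3%, against 26.2% of all genes tested), with 3 rising and 4 falling, and DESeq2 passed 4. TFB1M, the methyltransferase of the small ribosomal RNA, fell from 515 and 459 counts to 361 and 380, at a log2 fold change of -0.76 ± 0.12 (SE). ERAL1, a chaperone of that RNA, fell from 191 and 187 counts to 149 and 168, at -0.63 ± 0.17, and NDUFAB1, the mitochondrial acyl carrier protein, from 114 and 111 to 86 and 82, at -0.79 ± 0.20. In each, the CPM of the groups did not overlap, which choosing genes by the test favours. For these 3 the edgeR adjusted p-values were 8.7e-05, 0.0083 and 0.0063. DHX30 also fell (-0.31 ± 0.11), and MTERF4 (0.48 ± 0.13), RCC1L (0.39 ± 0.13) and MRM2 (0.34 ± 0.12) rose. These 4 were named after their values were seen. Among those that fell, the guanine excess was 2.15 points in TFB1M, -2.51 in ERAL1, 3.95 in NDUFAB1 and 0.46 in DHX30. Among those that rose, it was 2.89 in MTERF4, 5.55 in RCC1L and 4.26 in MRM2. The median over all genes tested was 1.04, and calls with composition offsets are not given for this list either.

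The proteins of the cytosolic ribosome gave other values in the same fit. Of 81 tested, 53 passed edgeR's test (65.4%, against 26.2% of all genes tested), 7 higher and 46 lower. The median log2 fold change of the 81 was -0.42, beside the -0.0056 of the mitoribosomal members. The difference between the 2 families was not tested.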

How the data were processed

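As deposited, each library's table gives raw read counts by gene as integers. The TPM and RPKM columns deposited by the authors were used for levels per length and for the read totals they imply. The genome build was GRCh38, per the submitters' processing notes. The aligner, counter and use of strand are not given in the sources used here. Groups come from the sample titles and descriptions.

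Counts were filtered with filterByExpr (minimum count 10, minimum total 15), scaled by TMM and tested with the quasi-likelihood test of edgeR 4.0.16 in R 4.3.3 on all 4 libraries without covariates. P-values were adjusted over 14759 genes by Benjamini-Hochberg, with a threshold of 0.05. The SE given with a log2 fold change is its absolute value divided by the square root of the test's F statistic. Positions, exon overlap and base composition came from GENCODE 29, which held 57980 of the 58243 identifiers, and promoters from RefSeq. The test was checked on simulated counts in which all genes had a common spread. Of 200 better counted genes changed by 1 on the log2 scale, 97% were called, beside 12 false calls. With no gene changed there were 0 false calls. Smaller changes, such as those of the members, were not simulated. DESeq2 1.42.0, limma-voom (limma 3.58.1), other filters, scalings and offsets, and leaving out each library were alternatives.

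Named members are those that passed with groups apart (at most 10 each way), the most and least counted, and those with a listed role. The members and lists were chosen with earlier results of these data known. Replicate letters were not taken as pairs, since library a minus library b in control and in SNP correlated at 0.050 over genes. Totals of 5613144 to 8056550 counts set the precision.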

Additional observations from a re-analysis of the deposited data

How the results depend on the processing

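Over all genes tested 3861 passed, and over the members 16. DESeq2's Wald test gave 2415 and 8, an adjusted p under 0.01 gave 2224 and 7, and a log2 fold change of at least 1 in size gave 647 and 0. Offsets for length, GC and guanine over cytosine gave 2761 and 8, and the same offsets with the replicate block 2721 and 8. Leaving out 1 library gave 2447 to 4144 genes and 7 to 16 members. With the replicate block alone 4487 genes and 17 members (9 higher, 8 lower) passed; the pairing rests on the letters only. Read totals implied by RPKM split the calls into 2085 higher and 1218 lower, against 2002 and 1859. The members' median of -0.0056 became 0.062 with those totals, 0.046 with length offsets and 0.044 with length offsets and the replicate block, and -0.070 to 0.034 without 1 library.

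The sign of some members that did not pass the test depended on the processing. With the offsets for length, GC and guanine over cytosine, alone and with the replicate block, the log2 fold change was 0.101 and 0.101 for MRPS18B, -0.181 and -0.176 for MRPS18C, -0.012 and -0.0079 for MRPS14, -0.561 and -0.559 for MRPS28, -0.150 and -0.152 for MRPL3 and -0.154 and -0.151 for MRPL50. With length offsets, alone and with the block, it was 0.0717 and 0.0715 for MRPL12 and 0.0157 and 0.0134 for MRPL44, and alone it was -0.0015 for MRPS18C. With read totals implied by RPKM it was 0.0186 for MRPL12 and 0.0393 for MRPL42. With limma-voom it was -0.0031 for MRPL3 and -0.0012 for MRPL41, and with the replicate block -0.0005 for MRPL3. Leaving out 1 library gave -0.121 to 0.216 for MRPS18C, -0.103 to 0.0104 for MRPL12, -0.153 to 0.0065 for MRPL44, -0.180 to 0.405 for MRPL45, -0.0944 to 0.184 for MRPS14, -0.108 to 0.168 for MRPS28, -0.174 to 0.166 for MRPL3, -0.0837 to 0.0989 for MRPL41 and -0.0946 to 0.0332 for MRPL42. The cause was not tested in any of these. A group left with 1 library was assumed to vary like the other.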
